A study of Mus musculus with 20 samples.

Results

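The genes described here are 41 members of the complement and coagulation systems, taken by symbol from a fixed list, out of 55642 genes in the files. Each symbol matched 1 Ensembl gene. The libraries were poly(A) RNA-seq of whole kidney and whole liver from adult male DBA/2J mice. JQ1, a small-molecule inhibitor of the bromodomain and extra-terminal (BET) reader proteins, was given by intraperitoneal injection at 50 mg/kg once daily for 3 weeks, and vehicle mice received the carrier alone. JQ1-treated mice were 10 weeks old and were collected when dosing ended (3 libraries per organ), and recovery mice were 16 weeks old and had been without JQ1 for 6 weeks (3 libraries per organ). The 4 vehicle control libraries of each organ came from 3 mice of 10 weeks and 1 mouse of 16 weeks, so the recovery group had 1 vehicle library of its own age. The sample labels call all 4 controls vehicle, whereas the design text of the series mentions untreated animals among them. A supplementary legend describes a shorter recovery and puts the numbers of vehicle animals at the end of dosing and at recovery the other way round. The sample labels and the design text were followed here, so the recovery time, the ages and the number of age-matched controls rest on them. The labels do not say whether a kidney and a liver library came from 1 animal.

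Complement is a cascade of plasma proteases and binding proteins that mark and lyse targets: the classical and lectin routes cleave C4 and C2, the alternative route uses factor B and factor D, all meet at C3, and the terminal components C5 to C9 form the membrane pore. Coagulation is a second protease cascade, which ends with thrombin cutting fibrinogen to fibrin; factor XIII crosslinks the clot, plasmin dissolves it, and protein C, antithrombin and other inhibitors hold it back. Hepatocytes make most of these plasma proteins, while several complement genes are also transcribed in the kidney. DBA/2J mice carry a loss-of-function allele of Hc, the gene for C5, so Hc transcripts in these data come from a strain without functional C5.

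Counting error differed widely between members. The 20 libraries held 13952510 to 26895318 assigned reads in kidney and 11968500 to 17529910 in liver. After a filter on low counts, 30 of the 41 members could be tested in kidney, among 17158 genes, and 40 in liver, among 14559 genes. Hc, C7, C8b, Masp2, Mbl2, F2, F7, F9, F11, F12 and Serpind1 did not pass in kidney, and C7 did not pass in liver. Library values are CPM, assigned reads scaled to a common library size with TMM factors, and a gene was called at an adjusted p below 0.05 in edgeR's quasi-likelihood test, with Benjamini-Hochberg adjustment over all genes tested in the organ. Where 4 vehicle values stand in a row, the last is that of the 16-week library, and a value with its SE in parentheses after a gene is a log2 fold change or, between organs, a difference of them. In a whole-organ library, fewer cells of a type and less RNA per cell cannot be told apart.

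A pair of liver libraries stood apart. JQ1 recovery replicates 2 and 3 of the liver held kidney transcripts: their 6 kidney tubule markers, among them Kap, Slc34a1 and Umod, stood at a median of 37.0% and 13.4% of their mean level in the kidney libraries, against 0.0368% in replicate 1 and at most 0.0186% in the vehicle and JQ1-treated livers. The summed CPM of 6 hepatocyte markers was 26602 and 48796 in these libraries and 58508 to 66236 in vehicle. The members' medians and most counts of liver calls are therefore given with and without both libraries, and other liver estimates come from the fit with all libraries. For JQ1-treated livers against vehicle, leaving both out moved no member's log2 fold change by more than 0.0192. In kidney, JQ1-treated replicate 1 had the highest summed adipocyte markers (133 CPM over 6 genes, against 15.5 to 53.0 in vehicle) and collagen and other mesenchymal markers (950.0 against 166 to 248).

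In vehicle controls the liver carried almost the whole system and the kidney a part of it. Measured as TPM, which corrects for transcript length, 38 of 41 members had the higher mean in liver, and the exceptions were C7, Cfd and F13b. In liver the highest levels were those of the fibrinogen chains Fgb (930.3 ± 179 TPM, SD, n = 4) and Fgg (690.2 ± 125), the pore component C9 (647 ± 119), the classical-route component C4b (521 ± 168) and the adhesion protein and complement inhibitor Vtn (461 ± 13.1). The SDs of C9 and Fgg overlap, as do those of C4b and Vtn. The lowest were C7, which was listed at 0 in all 4 libraries, Cfd (0.991 ± 1.45), the protein C cofactor Pros1 (6.15 ± 0.694), Hc (6.81 ± 1.90) and the contact-phase factor F11 (6.99 ± 0.519).

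In kidney the order was another one. Cfb, the protease subunit of the alternative C3 convertase, led with 243 ± 35.4 TPM (SD, n = 4), which was 65.5% of its liver level. Serpinf2, which encodes the plasmin inhibitor alpha-2-antiplasmin, followed at 57.8 ± 11.7 and Proc, the anticoagulant protease protein C, at 51.8 ± 11.2; these levels did not differ beyond their spread. C4b stood at 36.7 ± 12.9 and Cfd, the factor D protease that fat cells secrete, at 35.8 ± 18.4. F13b, the carrier subunit of factor XIII, had about the same level in both organs (17.4 ± 2.64 in kidney and 16.7 ± 1.14 in liver), and so had C2 (8.07 ± 0.520 and 8.93 ± 1.495). At the other end F11 (0.00493 ± 0.00985), Hc (0.0222 ± 0.00314), F12 (0.0229 ± 0.0459), C8b (0.0372 ± 0.0466) and F9 (0.0388 ± 0.0464) were close to 0 in kidney. In all, 12 members reached 5 TPM in kidney and 39 in liver, and 22 had a kidney level below 1% of their liver level.

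**Figure D1:**
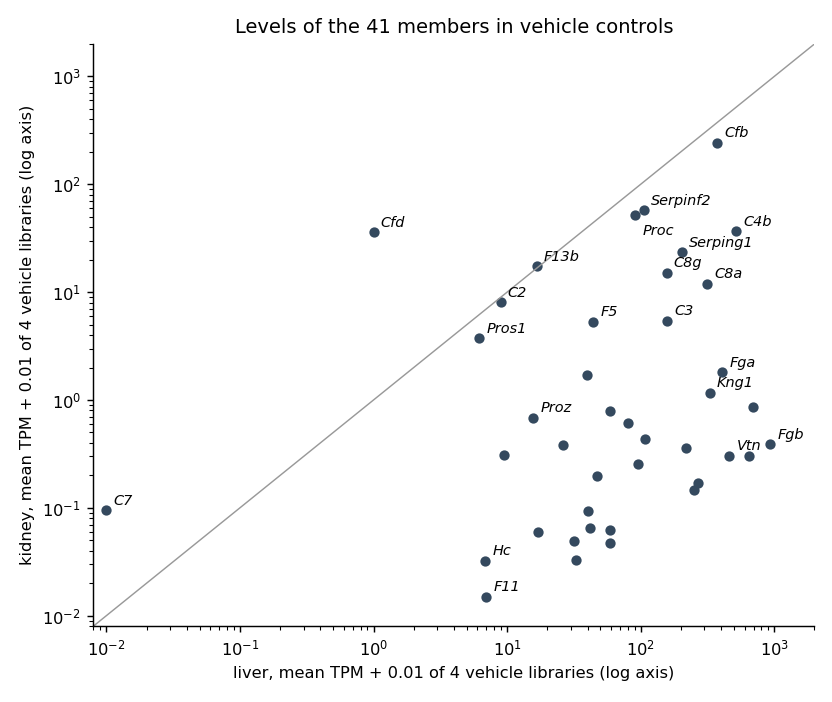
Mean level of each of the 41 members in the 4 vehicle libraries of liver (x axis) and of kidney (y axis), in TPM plus 0.01 on log axes; the line marks equal levels. Most members lie far below the line, while Cfb, Serpinf2, Proc, F13b, C2 and Pros1 lie near it and Cfd and C7 lie above it.

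In kidney, the highest Fgb and Alb values stood in the same libraries. The albumin transcript Alb was at 28.4 CPM in JQ1-treated replicate 3 and 27.6 in the 16-week vehicle kidney, against 3.94 to 15.7 in the other 8, and Fgb was highest in the same libraries (4.30 and 6.09 CPM against 0.188 to 2.78). Elsewhere the genes did not always run in parallel: JQ1-treated replicate 1 had Fgb at 2.78 and Alb at 5.98 CPM, and recovery replicate 3 had 0.629 and 11.8. Recovery replicate 1 had Fgb at 2.61 and the next highest Alb (15.7). Of the other hepatocyte markers, Ahsg (2.47 and 2.52 CPM) and Serpina3k (4.88 and 5.83 CPM) were also highest in the same pair of libraries. Apoa2 and Cps1 were highest in the 16-week vehicle kidney alone, and Fabp1 was highest in neither. The part of liver RNA in these values and in the levels of the rarer members was not tested.

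The promoters of the 4 members that fell in the JQ1-treated kidney and had a window, and that of C3, whose treated values lay above vehicle there, are shown so that they can be set side by side. RefSeq windows (build GRCm38.p6) were given for 32 of the 41 members, and Plg, Serping1, C4b, Cfb, Proc, Masp1, Kng1, C2 and Cfi had none. For each, the 200 bases before the annotated transcription start are given 5′ to 3′ on the gene's strand, with matches to 6 searched motifs in capitals, on both strands. C8g has a pair of annotated starts.
F13b, chr1:139501507-139501706, plus strand: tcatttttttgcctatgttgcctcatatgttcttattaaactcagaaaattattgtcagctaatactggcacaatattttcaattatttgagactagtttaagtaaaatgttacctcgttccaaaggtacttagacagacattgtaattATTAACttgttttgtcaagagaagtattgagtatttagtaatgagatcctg
C8g, chr2:25501720-25501919, minus strand: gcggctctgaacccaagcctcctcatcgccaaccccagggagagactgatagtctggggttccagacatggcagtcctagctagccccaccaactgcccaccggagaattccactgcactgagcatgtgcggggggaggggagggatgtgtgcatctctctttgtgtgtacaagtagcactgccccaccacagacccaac
C8g, chr2:25500507-25500706, minus strand: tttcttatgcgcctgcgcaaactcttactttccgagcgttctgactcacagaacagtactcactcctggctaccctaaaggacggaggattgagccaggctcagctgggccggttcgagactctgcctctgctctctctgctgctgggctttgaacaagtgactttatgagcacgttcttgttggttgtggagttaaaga
Serpinf2, chr11:75439502-75439701, minus strand: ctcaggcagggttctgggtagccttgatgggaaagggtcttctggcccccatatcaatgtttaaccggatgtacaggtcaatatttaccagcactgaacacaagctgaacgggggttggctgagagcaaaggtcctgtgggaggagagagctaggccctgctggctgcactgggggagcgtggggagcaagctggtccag
Proz, chr8:13060708-13060907, plus strand: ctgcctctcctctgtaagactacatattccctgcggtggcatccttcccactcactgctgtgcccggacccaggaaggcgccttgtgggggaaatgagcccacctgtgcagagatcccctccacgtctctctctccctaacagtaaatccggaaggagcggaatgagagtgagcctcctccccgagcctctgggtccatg
C3, chr17:57228137-57228336, minus strand: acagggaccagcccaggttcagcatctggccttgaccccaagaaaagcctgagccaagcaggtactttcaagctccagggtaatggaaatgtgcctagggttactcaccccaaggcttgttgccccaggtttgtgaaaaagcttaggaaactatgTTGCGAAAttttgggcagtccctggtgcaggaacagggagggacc
F13b held the HNF1 letters GTTAAT on the other strand, 51 to 46 bases before the start, and C3 the CEBP letters TTGCNNAA 45 to 38 bases before it. C8g (at either start), Serpinf2 and Proz held none of the letters searched in these windows. No matches of different motifs overlapped in these windows. Over the 33 windows of the 32 members, 8 held GTTAAT (24.2%, against 5.06% of all 32851 windows of this length), 7 held TTGCNNAA (21.2% against 7.47%) and 5 held the STAT letters TTCNNNGAA (15.2% against 5.49%). The TATA letters TATAAA were in 3 (9.09% against 9.96%). The HNF4 letters CAAAGTCCA and the NFKB letters GGGNNTTTC were in none (0.317% and 3.01% of all windows). These are matches of letters only. The GTTAAT windows were those of C4bp, F13b, Hc, Fga, Fgb, C8a, Vtn and C7, of which F13b was called in the JQ1-treated kidney and Hc and C7 were not tested there.

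At the end of dosing, members of both cascades were lower in the kidney. Against vehicle control, 6 of the 30 members tested fell and none rose: Cfb, F13b, Proc, C8g, Serpinf2 and Proz. Among all 17158 genes tested, 2.73% fell. The median log2 fold change of the 30 members was -0.31, against -0.00681 over all genes tested, and 19 of the 30 had a value below 0. That median was -0.15 without the 16-week vehicle kidney, with 17 of 30 below 0, and -0.55 without treated replicate 3. The members that fell belong to separate branches: the alternative complement route, the terminal pore, the anticoagulants, fibrin crosslinking and the control of fibrinolysis.

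Cfb (ENSMUSG00000090231) measured 107, 122 and 129.6 CPM in the 3 JQ1-treated kidneys, 227, 221 and 217 in the 10-week vehicle kidneys and 286 in the 16-week vehicle kidney. Every treated library lay below every control. The log2 fold change was -0.99 ± 0.097 (SE), adjusted p = 1.42e-05, a 1.99-fold lower level. C2, which encodes the classical-route counterpart of factor B and is the next protein-coding gene on the chromosome in RefSeq, measured 19.5, 15.7 and 16.3 CPM in treated kidneys and 19.7, 21.5, 19.9 and 17.5 in vehicle, and its log2 fold change was -0.20 ± 0.11 (SE), adjusted p = 0.402. The ranges of C2 overlapped.

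The other alternative-route and C3 genes did not follow Cfb. C3 itself, on which all routes meet, measured 99.6, 55.3 and 63.9 CPM in treated kidneys, 42.1, 45.8 and 29.9 in 10-week vehicle kidneys and 24.1 in the 16-week vehicle kidney. The treated values lay above all controls without overlap, but the test was not passed (1.04 ± 0.28 (SE), adjusted p = 0.0966). DESeq2 called it (adjusted p = 0.00983), and without treated replicate 1, the library with the highest adipocyte and mesenchymal markers, the log2 fold change was 0.75 ± 0.25 (SE), adjusted p = 0.229. Cfd, the factor D protease, spread from 12.6 to 239 CPM over the treated kidneys (239, 12.6 and 66.5) and from 14.4 to 53.7 over the controls, and its log2 fold change was 1.70 ± 0.88 (SE), adjusted p = 0.397. Adipoq, which fat cells express, ran in parallel at 35.95, 1.64 and 9.36 CPM in the same treated kidneys, and its part in the Cfd values was not tested. Cfi, the factor I protease that inactivates C3b, stayed between 1.47 and 2.48 CPM in all 10 kidneys.

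Of the classical and lectin genes, C4b had the largest estimate of the 30 members. It measured 12.1, 4.39 and 4.62 CPM in treated kidneys, 17.1, 31.2 and 19.5 in 10-week vehicle kidneys and 36.1 in the 16-week vehicle kidney, with no overlap. Its log2 fold change was -1.94 ± 0.43 (SE), adjusted p = 0.0563, and without treated replicate 1 it was -2.53 ± 0.36 (SE), adjusted p = 0.0120. DESeq2 called it with all libraries (adjusted p = 0.000501). C4a, a near-identical copy that encodes the sex-limited protein, measured 1.25, 1.07 and 0.4996 CPM in treated and 3.85, 6.15, 3.64 and 10.3 in vehicle kidneys and fell (-2.66 ± 0.42 (SE), adjusted p = 0.00461). Reads of these copies may have been split between them, so neither value is certain alone. The mannose-binding lectin Mbl1 (-0.92 ± 0.33 (SE), adjusted p = 0.147) did not pass, nor did Masp1, Serping1, which encodes the C1 inhibitor, or C4bp.

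**Figure D2:**
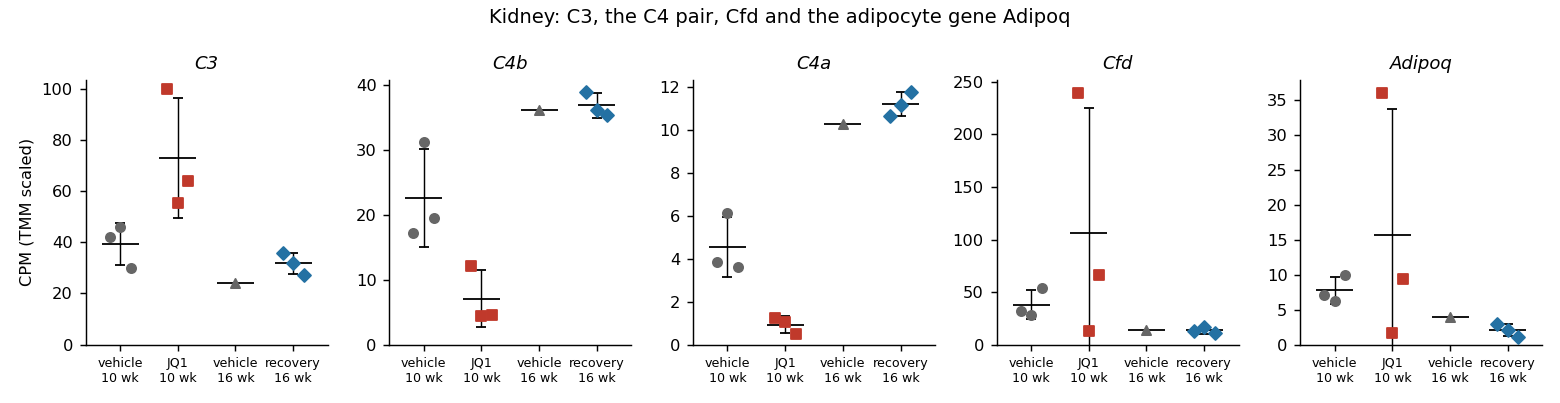
CPM of C3, C4b, C4a, Cfd and the fat cell gene Adipoq in each kidney library, by treatment and age; points are libraries, lines are means and bars 1 SD (no bar for the single 16-week vehicle library). C3 lies higher and C4b and C4a lower in all 3 JQ1-treated kidneys than in any vehicle kidney, while Cfd and Adipoq share the same high treated library.

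In the terminal pathway C8g fell. C8g encodes the gamma chain of C8, a lipocalin, and measured 3.69, 4.63 and 3.71 CPM in treated kidneys against 8.42, 6.06 and 9.89 in 10-week and 14.3 in 16-week vehicle. The groups did not overlap and the log2 fold change was -1.26 ± 0.24 (SE), adjusted p = 0.00529. C8a, the alpha chain, had an estimate of similar direction that did not pass: 2.85, 7.997 and 6.06 CPM against 11.5, 7.94, 11.1 and 12.4, -0.89 ± 0.28 (SE), adjusted p = 0.121. Here treated replicate 2 lay within the control range. C8b was nearly absent, with 0 to 2 reads per kidney library, as was Hc with 0 to 3, and C6 and C9 rested on 1 to 21 reads.

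Among the coagulation and fibrinolysis genes Proc, F13b, Serpinf2 and Proz fell. Proc measured 38.8, 48.0 and 40.4 CPM in treated kidneys, 91.8, 79.3 and 77.3 in 10-week and 119.9 in 16-week vehicle kidneys, a log2 fold change of -1.11 ± 0.15 (SE), adjusted p = 0.00153, or 2.17-fold lower. F13b measured 30.7, 22.5 and 26.9 CPM against 52.2, 48.3, 57.8 and 40.7 (-0.91 ± 0.13 (SE), adjusted p = 0.000584). Serpinf2 measured 93.2, 102 and 106 CPM against 151, 117, 141 and 189 (-0.57 ± 0.13 (SE), adjusted p = 0.0331). None of the 3 genes overlapped between treated and vehicle kidneys, though for Serpinf2 the nearest libraries were 106 and 117 CPM.

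Proz, which encodes the vitamin K-dependent protein Z, measured 1.81, 1.12 and 1.24 CPM against 2.35, 3.31, 2.18 and 3.47 (-1.04 ± 0.28 (SE), adjusted p = 0.0450), on 21 to 66 reads per library. Serpinf2 and Proz were the weakest calls, each lost in 5 of the 7 runs that left out 1 library. Leaving out single libraries raised the adjusted p to as much as 0.162 for Serpinf2 (without treated replicate 1) and 0.148 for Proz (without treated replicate 3). Over all 14 alternative runs the call was lost in 7 for Serpinf2 and in 9 for Proz, while Cfb, F13b, Proc and C8g were called under every alternative run. Pros1, the cofactor of protein C, measured 19.3, 16.4 and 15.5 CPM against 15.7, 14.2, 15.6 and 15.9 and did not pass (0.15 ± 0.13 (SE), adjusted p = 0.611). Cpb2, a carboxypeptidase that slows fibrinolysis, had the third largest estimate among members not called (-1.33 ± 0.51 (SE), adjusted p = 0.175), on 4 to 19 reads per library. F5, the cofactor of factor Xa, measured 41.7, 41.9 and 45.3 CPM against 50.8, 55.3, 59.9 and 38.8; it was called only when the treated kidneys were compared with the 10-week vehicle kidneys alone (-0.36 ± 0.092 (SE), adjusted p = 0.0374), a comparison in which Proz was not.

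The fibrinogen chains, whose genes lie next to each other in RefSeq, did not pass in kidney. Fga measured 3.20, 4.63 and 5.83 CPM in treated and 5.45, 3.25, 3.49 and 5.93 in vehicle kidneys (0.017 ± 0.24 (SE), adjusted p = 0.983). Fgb (0.37 ± 1.34 (SE), adjusted p = 0.929) and Fgg (-0.29 ± 0.43 (SE), adjusted p = 0.8005) rested on 3 to 116 and 15 to 59 reads per library. The thrombin inhibitor Serpinc1, which encodes antithrombin, measured 2.43, 2.28 and 2.83 CPM against 3.73, 2.19, 4.26 and 4.10 (-0.52 ± 0.25 (SE), adjusted p = 0.311), and its ranges overlapped. The contact-phase pair Klkb1, the plasma prekallikrein gene (-0.41 ± 0.28 (SE), adjusted p = 0.505), and Kng1 (0.056 ± 0.32 (SE), adjusted p = 0.956) did not pass either.

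**Figure D3:**
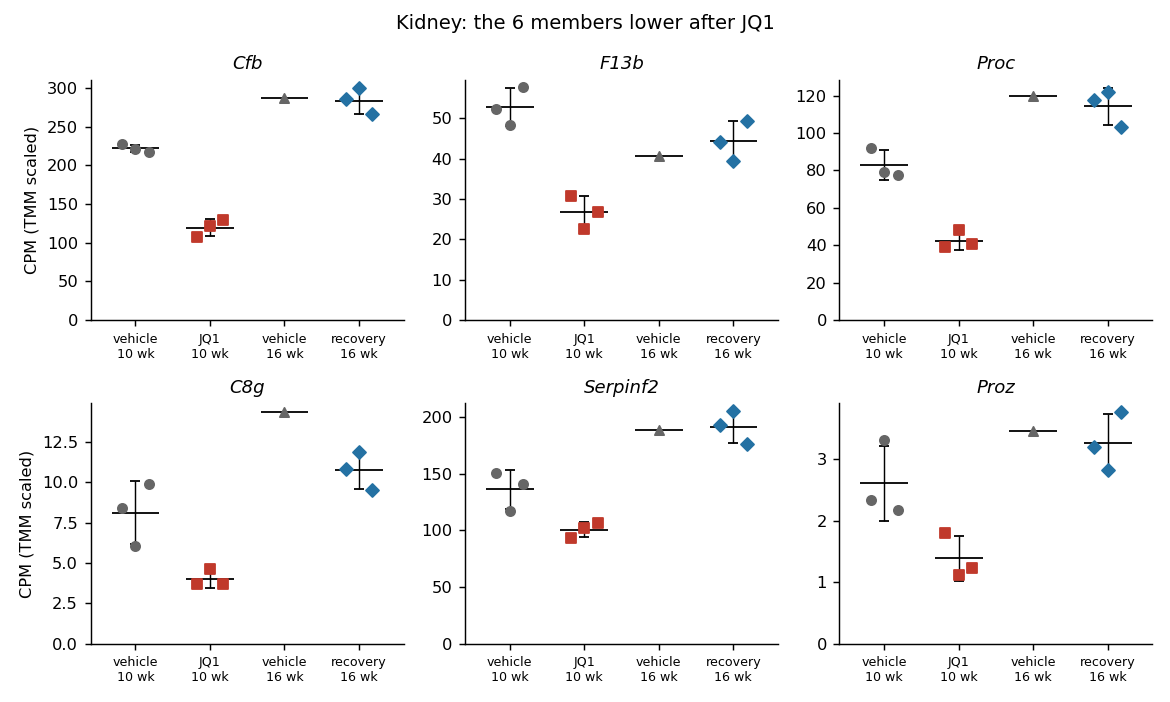
CPM of the 6 members that fell in the JQ1-treated kidney, in each kidney library by treatment and age (y axes start at 0); points are libraries, lines are means and bars 1 SD. In each panel the 3 JQ1-treated libraries lie below the 4 vehicle libraries, and the recovery libraries lie with or above the 10-week vehicle libraries except for F13b, where they partly overlap them from below.

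Some of the genes around the members passed the test, where 2.73% of all genes tested in kidney fell. Of 36 further complement genes, 26 were tested in kidney; C4a and C1rl, a C1r-like protease (-0.73 ± 0.10 (SE), adjusted p = 0.000227), fell and none rose, with a median log2 fold change of 0.0211. Of 38 further coagulation genes, 31 were tested; Pzp, a broad protease inhibitor (-1.08 ± 0.12 (SE), adjusted p = 2.19e-05), and Habp2, a protease that can activate factor VII (-0.54 ± 0.11 (SE), adjusted p = 0.0111), fell and none rose, with a median of -0.0462. Among 16 liver transcription factors, interleukin-6 signalling genes and similar regulators, 13 were tested and the kinase gene Jak1 rose (0.33 ± 0.077 (SE), adjusted p = 0.0194). Cell type markers moved beside these results: of 6 kidney tubule markers Kap (-0.57 ± 0.14 (SE), adjusted p = 0.0414) and Umod (-0.76 ± 0.13 (SE), adjusted p = 0.00684) fell and Slc34a1 (0.45 ± 0.065 (SE), adjusted p = 0.000370) rose, and of 4 macrophage markers tested Csf1r fell (-0.54 ± 0.13 (SE), adjusted p = 0.0273), while the median of the 4 was 0.91. The highest kidney values of Cd68, Cd163 and Adgre1 were in treated replicate 1 (11.8, 4.38 and 5.91 CPM). Of the platelet and red cell markers Alas2, the first enzyme of heme synthesis in red cell precursors, rose (0.98 ± 0.23 (SE), adjusted p = 0.0495). The median over the 5 tested was 0.78. Over whole lists, the summed CPM of the 6 kidney tubule markers was 15992 to 16578 in treated and 17058 to 25868 in vehicle kidneys, with none at 0. Kap made up most of that sum (10538 to 11075 CPM in treated and 12736 to 21245 in vehicle kidneys). The median log2 fold change of the 6 tubule markers was 0.15. The summed CPM of the 6 hepatocyte markers was 12.8 to 47.8 and 19.9 to 49.6. Among them Fabp1 stood at 0.569% of its liver level in vehicle kidneys and the others at 0.0260% to 0.0563%. The summed CPM of the 6 macrophage markers was 18.1 to 44.4 in treated and 28.3 to 31.9 in vehicle kidneys. That of the platelet and red cell markers was 6828 to 9552 in treated and 3382 to 6122 in vehicle kidneys, without overlap. The hemoglobin genes Hba-a1 (3984 to 5116 CPM in treated kidneys) and Hbb-bs (2812 to 4370) made up most of that sum. The platelet genes did not rise with it. Ppbp measured 1.60, 1.20 and 1.53 CPM in treated and 2.76, 3.06, 1.36 and 3.99 in vehicle kidneys. Pf4 measured 27.2, 3.33 and 4.65 CPM against 5.18, 6.00, 4.13 and 4.88, high only in treated replicate 1. The part of these markers in the members' values was not tested.

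In the recovery kidney no member was called against vehicle control. edgeR called 0 of 30 members (0.00583% of all genes tested, that is 1 gene), and DESeq2 also called 0 (103 of all 17158 genes). The unadjusted p of edgeR was below 0.05 for 2 members, against 9.16% of all genes. The median log2 fold change of the members was -0.059, against -0.00677 over all genes; without the 16-week vehicle kidney it was 0.15. The largest estimates were those of Cfd (-1.23 ± 0.97 (SE), adjusted p = 0.764), C4bp (0.96 ± 0.64 (SE), adjusted p = 0.690) and Plg, the plasmin precursor (0.77 ± 0.58 (SE), adjusted p = 0.735).

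For some members the outcome depended on the 1 vehicle kidney of the same age. The recovery kidneys measured 285, 300.1 and 266 CPM for Cfb, 118, 122 and 103 for Proc and 193, 206 and 176 for Serpinf2. All these values, and those of the 16-week vehicle kidney, lay above the 3 vehicle kidneys of 10 weeks. Without the 16-week vehicle kidney, Cfb (0.36 ± 0.075 (SE), adjusted p = 0.0224), Proc (0.47 ± 0.096 (SE), adjusted p = 0.0201) and Serpinf2 (0.50 ± 0.089 (SE), adjusted p = 0.00857) were higher in recovery than in vehicle, where 1.12% of all genes were. Age and recovery cannot be told apart in that comparison. With the 16-week vehicle kidney alone as the control, the median log2 fold change of the 33 members then tested was -0.079. That fit rests on 1 control library, which is assumed to vary like the other groups. C4b showed the same order, with 38.9, 36.1 and 35.3 CPM in recovery kidneys and 36.1 in the 16-week vehicle kidney. C8g (10.8, 11.9 and 9.55 CPM) and Proz (3.19, 2.83 and 3.77 CPM) overlapped the 10-week vehicle kidneys in recovery. The recovery kidneys (44.3, 39.4 and 49.5 CPM) and the 16-week vehicle kidney (40.7 CPM) stood within or below the range of the 10-week vehicle kidneys for F13b.

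Set directly against recovery, 7 of the 30 members were lower in the JQ1-treated kidney and none higher, where 4.91% of all genes were lower. This comparison shares the treated libraries with the one against vehicle, and treated and recovery mice differ in age. The log2 differences were -1.25 ± 0.10 (SE), adjusted p = 2.07e-06 for Cfb, -1.43 ± 0.16 (SE), adjusted p = 0.000291 for Proc and -0.93 ± 0.14 (SE), adjusted p = 0.00194 for Serpinf2. They were -1.41 ± 0.25 (SE), adjusted p = 0.00239 for C8g, -0.74 ± 0.14 (SE), adjusted p = 0.00324 for F13b and -1.25 ± 0.30 (SE), adjusted p = 0.0141 for Proz. C4b joined them (-2.44 ± 0.45 (SE), adjusted p = 0.0193), although its call was lost when recovery replicate 1, 2 or 3 or treated replicate 2 or 3 was left out (adjusted p up to 0.0673). The Proz call was lost when recovery replicate 3 or treated replicate 2 or 3 was left out (adjusted p up to 0.0701). The members' median was -0.34, against 0.00961 over all genes. The largest estimates among members not called were those of Cfd (2.93 ± 1.03 (SE), adjusted p = 0.153), C6 (-1.41 ± 0.70 (SE), adjusted p = 0.246) and C3 (1.20 ± 0.30 (SE), adjusted p = 0.0602). Of the further genes, C4a, C1rl, Pzp and Habp2 were lower again. Mcfd2, an export receptor subunit for factors V and VIII (-0.39 ± 0.086 (SE), adjusted p = 0.00789), was lower than in recovery only. So was Vkorc1, the vitamin K reductase (-0.40 ± 0.093 (SE), adjusted p = 0.0126). Neither gene was called against vehicle. Mcfd2 measured 145, 123 and 136 CPM in treated and 175, 167 and 190 in recovery kidneys. In vehicle kidneys it measured 144, 130, 133 and 158 CPM, the last at the recovery age. The treated Mcfd2 values thus overlapped those of vehicle kidneys of their own age. For Vkorc1 the treated values (52.8 to 58.2 CPM) lay below all vehicle values (62.7 to 80.6 CPM).

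In the JQ1-treated liver no member was called against vehicle control. edgeR called 0 of 40 members (0.495% of all genes tested were called), and DESeq2 also called 0 (284 of all 14559 genes). The unadjusted p of edgeR was below 0.05 for 3 members, against 9.53% of all genes. The members' median log2 fold change was -0.067, against 0.00254 over all genes. Cfb measured 651, 638 and 587 CPM in treated livers against 606, 491 and 609 in 10-week and 650.2 in 16-week vehicle livers, with overlapping ranges (0.086 ± 0.15 (SE), adjusted p = 0.924). Proc (-0.19 ± 0.20 (SE), adjusted p = 0.847), F13b (-0.079 ± 0.11 (SE), adjusted p = 0.895) and Serpinf2 (-0.03 ± 0.15 (SE), adjusted p = 0.976) did not pass either. Cfd had the largest estimate of all (-5.22 ± 2.89 (SE), adjusted p = 0.648) but lay at 0 to 4.12 CPM in these livers.

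The count of liver calls changed with the pair of recovery libraries that held kidney transcripts; all groups of an organ shared 1 estimate of the spread. Without them, 4 of 40 members were called (2.3% of all genes tested), and the same 4 were called when only JQ1-treated and vehicle livers entered the fit (2.66%). Without them the unadjusted p was below 0.05 for 16 members (7 higher and 9 lower), against 12.99% of all genes, and the members' median was -0.0773. C3 was higher, at 2445, 2360.3 and 2219.7 CPM in treated livers against 1679, 1429.5, 1739 and 1882 in vehicle (0.47 ± 0.094 (SE), adjusted p = 0.00850). Kng1, which encodes kininogen, was higher as well, at 1651, 1587 and 1680.0 CPM against 1262, 1079, 1249 and 1317 (0.41 ± 0.086 (SE), adjusted p = 0.0126). Both sets of treated values lay above every vehicle liver. C8g was lower, at 121, 142 and 143 CPM against 185, 165, 173 and 213 (-0.46 ± 0.098 (SE), adjusted p = 0.0140), and F9, the factor missing in hemophilia B, was lower at 137, 139 and 116 CPM against 162, 177, 164 and 174 (-0.38 ± 0.088 (SE), adjusted p = 0.0216). Kng1 has a close copy, Kng2, and reads may have been split between them. The summed hepatocyte markers were higher in treated livers (76394 to 81410.0 CPM) than in vehicle livers (58508 to 66236 CPM), and their part in these values was not tested. No gene of the further complement, coagulation or regulator lists was called in this comparison with all libraries.

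By role, the liver estimates ran both ways. Of the fibrinogen chains, Fga measured 2024, 1929 and 2029 CPM in treated and 1726, 1531, 1386 and 1939.7 in vehicle livers (0.28 ± 0.20 (SE), adjusted p = 0.738), and Fgg 3106, 2570.5 and 2579.7 against 2156, 1906, 1926 and 2724 (0.34 ± 0.21 (SE), adjusted p = 0.676). For both chains the 16-week vehicle liver was the highest of the controls. Of the terminal components, C9 measured 722, 807 and 784 CPM against 906, 728, 1030.3 and 1171 (-0.31 ± 0.25 (SE), adjusted p = 0.768), and Hc 106, 82.7 and 68.6 against 65.8, 60.2, 63.8 and 106 (0.22 ± 0.28 (SE), adjusted p = 0.879). Prothrombin F2 measured 840.5, 814 and 806 CPM against 965, 809, 973 and 1048 (-0.21 ± 0.15 (SE), adjusted p = 0.747). The ranges of C9, Hc and F2 overlapped between the groups. In all, 15 of the 40 members had a value above 0 and 25 below 0.

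**Figure D4:**
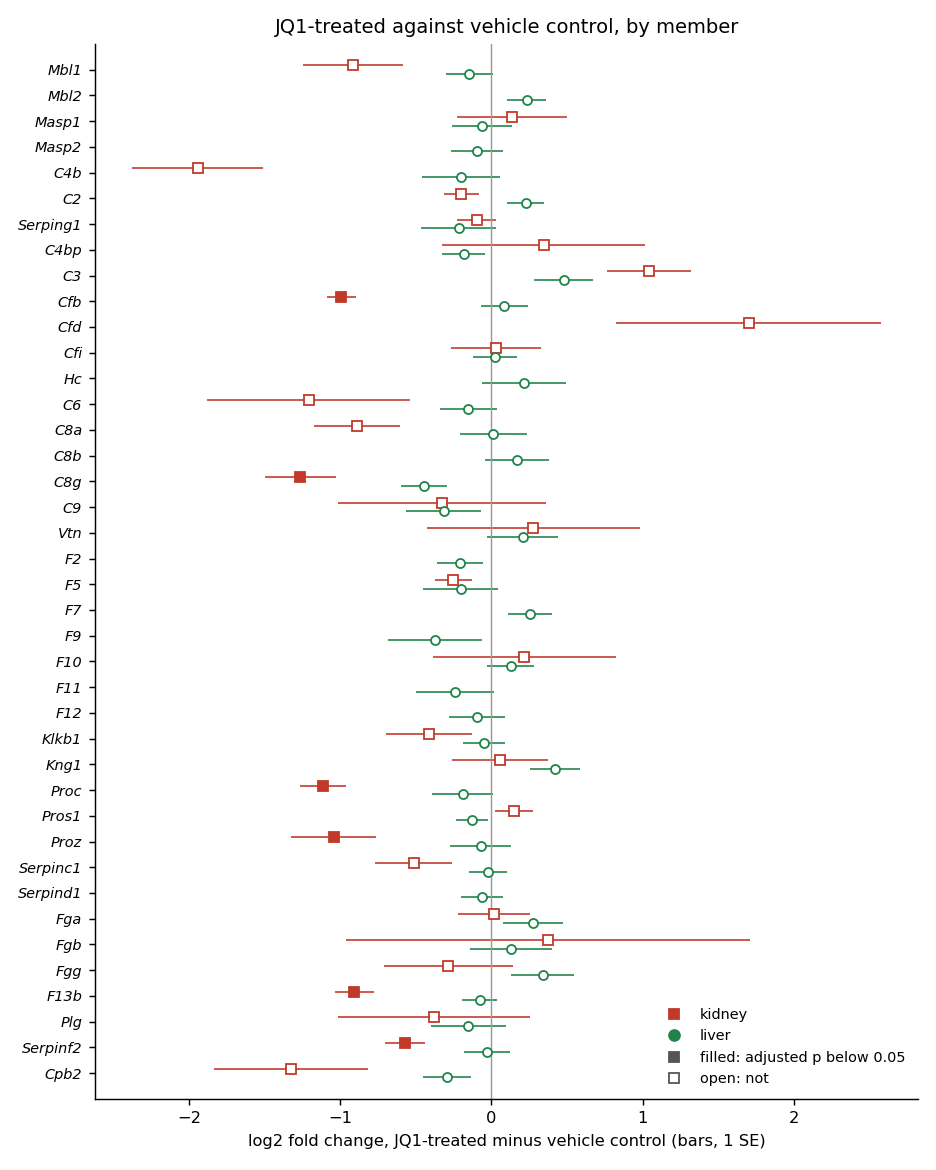
Log2 fold change of each member, JQ1-treated minus vehicle control, in kidney (red squares) and liver (green circles), with bars of 1 SE; filled symbols have an adjusted p below 0.05. Members run from the lectin route at the top through complement and coagulation to fibrinolysis, members not tested in an organ have no symbol, and the liver value of Cfd, near 0 CPM, is not drawn. The filled symbols are the 6 kidney members Cfb, C8g, Proc, Proz, F13b and Serpinf2, all left of 0.

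Whether the organs differed was tested as the kidney effect minus the liver effect in 1 model over both organs, with 40 members among 17710 genes. Only Cfb was called (-1.07 ± 0.20 (SE), adjusted p = 0.0208), where 0.169% of all genes were, and F13b was next (-0.81 ± 0.18 (SE), adjusted p = 0.0703). Proc (-0.92 ± 0.28 (SE), adjusted p = 0.351) and C4b (-1.71 ± 0.52 (SE), adjusted p = 0.357) did not pass. Without the pair of liver recovery libraries, 0.609% of all genes were called, and Cfb (-1.05 ± 0.14 (SE), adjusted p = 0.000243), Proc (-0.90 ± 0.17 (SE), adjusted p = 0.00854) and F13b (-0.80 ± 0.16 (SE), adjusted p = 0.0178) were called. With vehicle libraries of the same age alone, the Cfb difference was -1.02 ± 0.19 (SE), adjusted p = 0.0568. Its adjusted p also rose above the threshold when kidney treated replicate 1 or 3 or liver treated replicate 1 or 2 was left out, with differences of -0.99 to -1.13. The largest estimates among members not called were those of Cfd (7.04 ± 3.51 (SE), adjusted p = 0.678), Hc (-2.83 ± 1.34 (SE), adjusted p = 0.647) and Masp2 (-2.69 ± 1.52 (SE), adjusted p = 0.743), each near 0 reads in one of the organs.

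In the recovery liver most members had lower values than in vehicle control, and they were lowest in the libraries with kidney transcripts. edgeR called 0 of 40 members (0.0343% of all genes tested were called), DESeq2 called 6, all lower, where 1.44% of all genes were, and 24 had an unadjusted p below 0.05, all lower, while 7.12% of all genes did so in that direction. The members' median log2 fold change was -0.44, against 0.0171 over all genes. By library, the median log2 ratio of the 40 members to vehicle was -0.09 in recovery replicate 1, -0.98 in replicate 2 and -0.40 in replicate 3, beside -0.12, -0.96 and -0.28 for the hepatocyte markers. The lowest members and the lowest hepatocyte markers were in the library with the most kidney transcripts.

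Single members showed the same order of libraries. C3 measured 1412, 682 and 1174 CPM in recovery replicates 1, 2 and 3, and 1679, 1429.5, 1739 and 1882 in vehicle livers. Fgg measured 1825, 915 and 1537 CPM against 2156, 1906, 1926 and 2724, and Plg 1274, 483 and 1011 CPM against 1339, 1415, 1369.9 and 1666. Cfd ran the other way, with 0.345, 20.4 and 4.14 CPM in the recovery livers against at most 4.12 in vehicle. The largest estimates among the members were those of Cfd (2.67 ± 1.37 (SE), adjusted p = 0.383), Plg (-0.65 ± 0.25 (SE), adjusted p = 0.224) and Vtn (-0.64 ± 0.24 (SE), adjusted p = 0.211). With replicates 2 and 3 left out, the median of the 40 members was -0.096. That value rests on the 1 remaining recovery library, which is assumed to vary like the other groups. Without replicate 2 alone the median was -0.22. With replicate 1 left out instead, 24 members were called, all lower, where 4.84% of all genes were. Of the further genes Serpine2, a thrombin-inhibiting serpin, was higher in recovery (2.03 ± 0.32 (SE), adjusted p = 0.0455), at 4.41, 10.8 and 5.85 CPM against 1.37, 1.88, 1.44 and 2.14. It stood at 19.4 to 27.8 CPM in the kidney libraries.

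**Figure D5:**
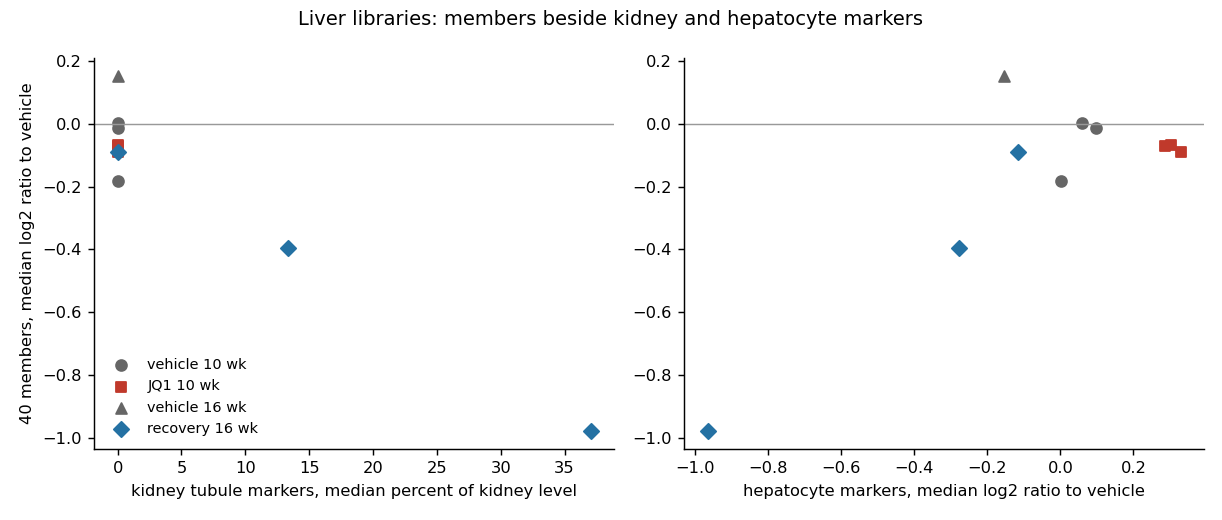
Median log2 ratio of the 40 tested members to the vehicle livers (y axis, each vehicle library against the other 3) beside the kidney tubule markers (left, median percent of their kidney level) and beside the hepatocyte markers (right, median log2 ratio to vehicle), for the 10 liver libraries. Recovery replicates 2 and 3 lie apart from the other 8 libraries, with more kidney transcripts and lower members and hepatocyte markers.

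Set against recovery, 4 of 40 members were higher in the JQ1-treated liver and none lower, where 1.31% of all genes were higher. They were Kng1 (1.00 ± 0.18 (SE), adjusted p = 0.0154), C3 (1.105 ± 0.21 (SE), adjusted p = 0.0205), Fgg (0.95 ± 0.22 (SE), adjusted p = 0.0431) and Mbl2, a mannose-binding lectin (0.58 ± 0.14 (SE), adjusted p = 0.0433). The members' median was 0.36, against -0.0195 over all genes. Without recovery replicates 2 and 3, 0.469% of all genes were higher, with C3 (0.73 ± 0.15 (SE), adjusted p = 0.0205) and Kng1 (0.66 ± 0.14 (SE), adjusted p = 0.0212) among them, while Fgg (0.59 ± 0.19 (SE), adjusted p = 0.249) and Mbl2 (0.28 ± 0.13 (SE), adjusted p = 0.451) did not pass. The members' median was then 0.00849, with 21 values above 0 and 19 below, against 34 and 6 with all libraries. That fit rests on 1 recovery library, which is assumed to vary like the other groups. Without recovery replicate 1 alone the median was 0.58, and without replicate 2 alone 0.12. With single libraries left out, the number called ran from 0 to 20. It was 0 without recovery replicate 3 or any of the treated replicates, where 17 to 43 of all genes were called. It was 20 without recovery replicate 1, where 2154 of 15450 genes were called. Cfd (-7.89 ± 2.55 (SE), adjusted p = 0.146), Fga (0.84 ± 0.21 (SE), adjusted p = 0.0546) and Vtn (0.84 ± 0.26 (SE), adjusted p = 0.0974) had the largest estimates among members not called. Of 25 further coagulation genes tested, 1 was lower in the JQ1-treated liver than in recovery, where 144 of all 14559 genes were lower. None of the 30 further complement and 16 regulator genes tested was called.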

How the data were processed

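Per the labels and the study's methods, single-end poly(A) reads from 1 sequencer lane were trimmed with fastp 0.20.1 and quantified by the authors with Salmon 1.10.0 on a GENCODE mouse transcriptome; the build named (mm10) and the GENCODE release named do not match, so no coordinates were taken from the files. The deposited files give estimated counts and TPM for 147833 transcripts in each of 20 libraries. Both were summed by Ensembl gene, and counts were rounded.

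Each organ was fitted with edgeR 4.0.16 (R 4.3.3; TMM, filterByExpr at count 10 and total 15, robust quasi-likelihood) on treatment, recovery and control, with control pooling both ages; the organ difference came from 1 model over both organs. The study used DESeq2, which served here as an alternative (version 1.42.0). Alternatives were other scaling, no low-count filter, length-scaled counts, only the groups compared, the control of the same age, a replicate block and single libraries left out. Removal of liver recovery replicates 2 and 3 was added after seeing the data. Scripts were tested on simulated counts. The members, pathway lists and markers were chosen with earlier results of these data known. C4bpb was listed but is not analysed here.

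Full statistics are given for members called in any of 7 comparisons, and values for the 3 largest estimates among members not called, the 5 highest and 5 lowest members per organ, and pathway genes called. The 1 pathway gene called for liver treatment against recovery is counted but not named there. Other genes are named for contrast and were chosen after their values were seen. Replicates are separate samples per the labels, which name no animals, so p-values measure the spread between these samples.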

Additional observations from a re-analysis of the deposited data

Results flagged for a closer look

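With 4 control libraries in each organ, a member was looked at again where 1 library lay far from the other 3, which chance alone gives in about 1 of 20 groups; 30 members were looked at in kidney and 40 in liver. In kidney, Cfb stood at 286 CPM in the 16-week vehicle library and at 217 to 227 in the 10-week ones, and Fgb at 6.09 CPM in the same library against 0.188 to 0.690. Pros1 stood at 14.2 CPM in 10-week vehicle replicate 2 and at 15.6 to 15.9 in the other 3. In liver, Hc stood at 106 CPM in the 16-week vehicle library against 60.2 to 65.8. The 16-week libraries were the only controls of their age, so age and library cannot be told apart. The Alb transcript was also highest among vehicle kidneys in the library with the high Fgb value, at 27.6 CPM.

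The effect of JQ1 at the end of dosing on Cfb differed between the organs, with a kidney minus liver difference of -1.07 on the log2 scale in edgeR's quasi-likelihood test of the difference itself (adjusted p = 0.0208). All 3 JQ1-treated kidneys lay below all 4 vehicle kidneys, while the treated and vehicle livers overlapped. The call was lost in 6 of 22 alternatives, among them the control of the same age (adjusted p = 0.0568) and 4 of 14 that left out 1 library.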

How the results depend on the processing

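Of the 242 alternative log2 fold changes computed for the 18 called values, 186 kept the direction and the call, 56 kept the direction but lost the call, and 0 reversed; 6 of these values are repeats, because the control of the same age and the omission of the 16-week vehicle are 1 fit for the treated kidney. In the JQ1-treated kidney, 4 to 9 members were called under the alternatives, which called 411 to 1084 genes over all genes tested. With single libraries left out, the number called was 4 to 6 there, 0 to 3 in the recovery kidney (3 without the 16-week vehicle), 5 to 8 for kidney treatment against recovery, 0 in the treated liver, 0 to 24 in the recovery liver (24 without recovery replicate 1), 0 to 20 for liver treatment against recovery and 0 to 2 for the organ difference (2 without the 16-week vehicle kidney, 0 without kidney treated replicate 1 or 3 or liver treated replicate 1 or 2). Over all genes, 2107 of 15450 were called in the recovery liver without recovery replicate 1, and 2154 of 15450 for liver treatment against recovery. Without the 16-week vehicle, 240 of 16987 were called in the recovery kidney. DESeq2 called 11 for kidney treatment against recovery (1679 of 17158 genes) and 6 in the recovery liver (662 of 14559). It called 11 for liver treatment against recovery (1158 of 14559) and 3 for the organ difference (109 of 17710). Without the low-count filter 5 were called in the recovery liver (226 of 26915 genes) and 2 for the organ difference (36 of 30854). With only the groups compared in the fit, 4 were called in the treated liver (368 of 13860 genes). That setting called 0 for liver treatment against recovery (33 of 13924) and 3 for the organ difference (83 of 17288). Length-scaled counts called 2 for liver treatment against recovery (165 of 14691 genes), and the control of the same age 0 for the organ difference (17 of 17466). Without liver recovery replicates 2 and 3, 4 were called in the treated liver, 2 for liver treatment against recovery and 3 for the organ difference. The cause of these changes was not tested.

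Same-numbered libraries share only a number: their deviations from the group means correlated at -0.13 to 0.103 in kidney and -0.064 to 0.002 in liver, and not every library correlated best with its own number. With the replicate block the number called was 4 in the treated kidney (554 of 17158 genes) and 7 for kidney treatment against recovery (1063 of 17158). It was 4 for liver treatment against recovery (222 of 14559) and 0 for the organ difference (3 of 17710), where the adjusted p of Cfb was 0.0849. With CPM in place of TPM, 39 of 41 members were higher in liver.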

Other observations

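In vehicle kidneys the 41 members together took 0.0758% to 0.0931% of assigned reads, and in JQ1-treated kidneys 0.0525% to 0.0726%. In vehicle livers the 40 tested members took 2.42% to 3.15% and in JQ1-treated livers 2.56% to 3.03%. C7, a terminal component, stood at 0.0454 to 0.683 CPM in the kidney libraries and at 0 to 0.239 CPM in the liver libraries.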
